A study of Mus musculus with 4 samples.

Results

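The scaffold of the intestinal microvillus was examined through 10 genes: Vil1, Espn, Eps8, Pls1, Myo1a, Cdhr2, Cdhr5, Ush1c, Myo7b and Anks4b. They were picked by gene symbol from the deposited transcript tables, which list 55203 genes in all, and the value of a gene was the sum over its transcripts. The 10 genes hold 60 of the 141738 listed transcripts. Values are FPKM, that is, fragments scaled to transcript length and to the mapped total of the library, so levels of different genes can be set side by side.

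The study made 4 RNA-seq libraries of the gut of wild-type C57BL/6NTac mice, an inbred strain. The mice were adult males of 8 to 12 weeks, free of specific pathogens (SPF). Of the libraries, 2 carry the label of treatment with ribonucleoside vanadyl complex (RVC) at 4 mM, which blocks ribonucleases, and 2 carry the label fresh frozen. They are called RVC 1, RVC 2, fresh frozen 1 and fresh frozen 2 here, and values are given with sample 1 before sample 2. The labels do not say whether the samples of a group came from separate animals, so p-values measure only the spread between these samples, which may be technical. Each library has a batch label of its own, 1 to 4. Group and batch therefore cannot be told apart, and there is no value within a batch. The sample labels name the ileum and the protocol text names the distal colon; 1 protocol text, which describes an RVC rinse, is attached to all of them, and how the fresh-frozen samples were handled is given by no other text. Summed over 7 colon genes (the 3 most abundant were Car4, Car1 and Aqp8) the libraries held 3710 to 5396 FPKM, and summed over 10 ileum genes (led by Fabp2, Ccl25 and Fabp6) they held 27.1 to 56.0 FPKM, with Fgf15 and Apoa4 listed at 0 in all 4 libraries. Relative sequencing depth, read from the ratio of coverage to FPKM, was 72.6% to 100% of that of the deepest library, fresh frozen 2.

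Microvilli are finger-like extensions of the apical membrane of absorptive epithelial cells, packed side by side into the brush border. Each is held up by a core of parallel actin filaments that villin (Vil1), espin (Espn), plastin-1 (Pls1, also called fimbrin) and Eps8 bundle or cap, and myosin-1a (Myo1a) ties that core to the membrane around it. At their tips neighbouring microvilli are joined by links of the protocadherins CDHR2 and CDHR5, whose tails are held by a complex of harmonin (Ush1c), the ankyrin-repeat protein ANKS4B and the motor myosin-7b (Myo7b). A related complex, in which other family members take the place of some of these proteins, joins the stereocilia of sensory hair cells in the inner ear.

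All 10 genes were expressed in all 4 libraries, and their mean levels spanned from 27.8 to 301 FPKM. Summed over the 10 genes, the level was 1397 and 1233 FPKM in the RVC pair and 1115 and 1055 in the fresh-frozen pair. Cdhr5 was the most abundant, above 98.4% of the genes that passed the filter on low values, and Myo7b the least, still above 84.1% of them. In the order of mean levels, Cdhr5 was followed by Vil1, Cdhr2, Pls1, Myo1a, Eps8, Anks4b, Ush1c, Espn and Myo7b. Neighbours in this order differed beyond the spread over the 4 libraries at 4 steps: from Cdhr5 to Vil1 (a ratio of means of 1.49), from Myo1a to Eps8 (1.52), from Eps8 to Anks4b (1.57) and from Ush1c to Espn (1.90). At the other 5 steps the ranges overlapped. Vil1 was above Cdhr2 in each of the 4 libraries even so, Pls1 was above Myo1a in 2 of 4 and Cdhr2 above Pls1 in 2 of 4, the 2 RVC libraries. A plot of the levels by library shows this order.

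**Figure D1:**
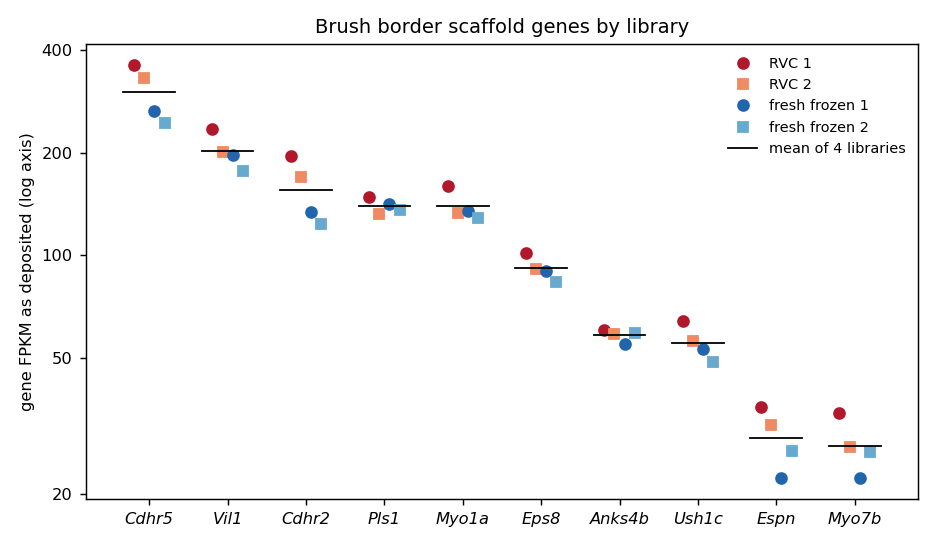
Gene FPKM as deposited (vertical log axis) of the 10 scaffold genes, in order of mean level. Points are the 4 libraries (circles sample 1, squares sample 2, reds RVC, blues fresh frozen) and the line is their mean; the spread is widest for Espn, whose highest value is 1.61 times its lowest, and narrowest for Anks4b, at 1.09 times.

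Among the genes of the actin core, Vil1 (ENSMUSG00000026175, GRCm39 chr1:74448535-74474718, plus strand) encodes villin, which bundles actin filaments and, at high calcium, severs them. It measured 234 and 201 FPKM with RVC and 196 and 176 fresh frozen (202 ± 24.1, SD, n = 4). Both RVC libraries were above both fresh-frozen ones, with RVC 2 and fresh frozen 1 close together. Of its 4 listed transcripts, ENSMUST00000027366, of 20 exons and 3124 nt, carried 97.6% to 98.8% of the level.

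Pls1 (ENSMUSG00000049493, chr9:95634695-95727364, minus strand) encodes plastin-1, which packs actin filaments closely. Its values were 149 and 132 FPKM in the RVC pair and 141 and 136 in the fresh-frozen pair (139 ± 7.03, SD, n = 4). Here the groups overlapped, with the RVC libraries holding both the highest and the lowest value. The leading transcript, ENSMUST00000093800 (16 exons, 3704 nt), gave 76.6%, 78.8%, 82.5% and 78.5% of the gene in the same order of libraries. A short coding transcript of 612 nt, ENSMUST00000119760, gave 21.6%, 19.9%, 15.1% and 18.9%. FPKM divides by length, so a share of FPKM is a share of molecules, not of reads, and the estimate for a short transcript rests on fewer reads: for this one the files' confidence bounds in RVC 1 ran from 27.6 to 36.5 FPKM around 32.0.

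Eps8 (ENSMUSG00000015766, chr6:137454243-137631874, minus strand) encodes a protein of microvillus tips that caps and bundles actin. It measured 102 and 91.3 FPKM with RVC and 90.4 and 83.6 fresh frozen (91.7 ± 7.51, SD, n = 4). The groups did not overlap, though RVC 2 and fresh frozen 1 were close to each other. Of the 10 genes Eps8 had the most transcripts at a mean of 1 FPKM or more, 9 of its 13. The leading one, ENSMUST00000100841 (21 exons, 4151 nt), did not share the higher values of the gene in RVC. It stood at 57.4 and 58.9 FPKM in the RVC libraries and at 65.0 and 59.2 in the fresh-frozen ones, with RVC 2 and fresh frozen 2 close together. As shares of the gene these were 56.4%, 64.5%, 71.9% and 70.8%. A second coding transcript, ENSMUST00000146442 (622 nt), gave 11.0%, 12.3%, 10.2% and 8.54%. Another coding transcript, ENSMUST00000111878 (3560 nt), was singled out after its values were seen. It was at 13.5 and 5.38 FPKM in the RVC pair and 1.46 and 2.15 in the fresh-frozen pair, or 13.3%, 5.89%, 1.62% and 2.58% of the gene. Its confidence bounds were 12.4 to 14.7, 4.67 to 6.09, 1.08 to 1.85 and 1.76 to 2.55 FPKM, so RVC 1 differed from RVC 2 by more than these bounds too. It starts at base 137626283, upstream of the leading transcript, which starts at base 137548015. A transcript with the same upstream start, ENSMUST00000058210, went the other way, at 4.39, 4.46, 5.38 and 5.39 FPKM. Other coding transcripts that start upstream were higher in RVC. ENSMUST00000147526, from base 137625281, was at 4.38, 2.98, 1.45 and 1.64 FPKM. ENSMUST00000132920, from base 137631874, was at 2.06, 1.11, 1.05 and 0.557 FPKM, with RVC 2 and fresh frozen 1 close together.

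Espn (ENSMUSG00000028943, chr4:152204788-152236828, minus strand) encodes espin, an actin bundler known in a short form from intestinal microvilli and in longer forms from the inner ear and testis. It measured 36.0 and 31.9 FPKM with RVC and 22.3 and 26.7 fresh frozen (29.2 ± 5.98, SD, n = 4). Both RVC libraries were above both fresh-frozen libraries. Of 20 listed transcripts, the short ENSMUST00000049305 (5 exons, 1142 nt) led with 68.3%, 70.6%, 69.1% and 69.8%, and the long ENSMUST00000030785 (16 exons, 3406 nt) gave 18.0%, 17.2%, 19.4% and 16.1%. The short form starts inside the gene, as the exon map shows. Its first exon is absent from the long form, and its second covers neighbouring exons of the long form and the intron between them. Its remaining exons, at the 3′ end, are shared with the long form.

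RefSeq gives Espn 3 promoters, and transcripts in these files were assigned to a promoter where they begin within 300 nt of it. The 100 bases upstream of each start, on the minus strand of GRCm39, are shown because the 3 starts were used so unequally. They are printed in lower case with no base marked, and each matched the genome once from RefSeq's entries, whose own build is GRCm38.p6.
Espn start 1: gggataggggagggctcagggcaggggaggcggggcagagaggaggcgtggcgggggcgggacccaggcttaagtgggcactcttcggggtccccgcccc
Espn start 2: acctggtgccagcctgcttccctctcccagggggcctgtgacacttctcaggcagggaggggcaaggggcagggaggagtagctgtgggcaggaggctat
Espn start 3: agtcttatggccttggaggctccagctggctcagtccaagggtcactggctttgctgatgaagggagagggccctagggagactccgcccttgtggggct
Start 1 lies at chr4:152236847-152236946, start 2 at chr4:152220783-152220882 and start 3 at chr4:152213383-152213482. Their G and C content was 75%, 66% and 61%. The 4 transcripts that begin at start 1, the most upstream, summed to 20.02% ± 1.53 (SD, n = 4) of Espn. The 8 that begin at start 2 summed to at most 0.439% in any library. Their sum was 0.098 and 0.071 FPKM in the fresh-frozen pair and still nearer 0 in the RVC pair. The lower confidence bound of each was 0 in every library, so start 2 was at the floor in both groups. The 1 transcript of start 3 gave 69.5% ± 0.963. The remaining 7 transcripts, with starts elsewhere, gave 10.3% ± 0.931. The order of start 3 over start 1 over start 2 was the same in all 4 libraries.

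The motor gene Myo1a (ENSMUSG00000025401, chr10:127541039-127556809, plus strand) measured 160 and 133 FPKM in the RVC pair and 135 and 129 in the fresh-frozen pair (139 ± 14.2, SD, n = 4). RVC 1 stood above the other libraries, and RVC 2 lay between the fresh-frozen values. A single transcript of 27 exons, ENSMUST00000079590 (3439 nt), carried 99.4% to 99.8% of it.

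The tip-link cadherin gene Cdhr5 (ENSMUSG00000025497, chr7:140848996-140856699, minus strand) was the most abundant of the 10 in every library. It measured 362 and 331 FPKM with RVC and 265 and 245 fresh frozen (301 ± 54.9, SD, n = 4). Both RVC libraries were well above both fresh-frozen ones. A pair of transcripts that differ mainly by 1 exon made up most of it. The shorter, ENSMUST00000080654 (14 exons, 2133 nt), gave 48.1%, 44.4%, 48.2% and 44.5% of the gene, and the longer, ENSMUST00000167263 (15 exons, 2628 nt), gave 38.9%, 41.6%, 36.8% and 41.2%. Of the sum of both, the longer was 44.7%, 48.4%, 43.3% and 48.1%: the samples numbered 2 had the higher share in each group, and the groups overlapped. A truncated transcript of 1001 nt, ENSMUST00000210124, gave 10.9% to 12.5%.

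The exon that sets the long form apart from the shorter of the pair is exon 13 of 15, chr7:140851430-140851915 on the minus strand. It is coding, 486 nt or 162 whole codons long, and keeps the reading frame. Longer forms of this cadherin are known to carry mucin-like repeats that shorter forms lack. A search for periodicity in the exon gave a unit of 93 nt, or 31 codons. The number of tandem copies was set at 3 beforehand. They were placed where the most bases were shared by all 3, and further copies in the exon were not searched for. The copies are shown because this exon is nearly the whole difference between the 2 leading forms. Capitals mark the bases that all 3 share.
Cdhr5 exon copy 1: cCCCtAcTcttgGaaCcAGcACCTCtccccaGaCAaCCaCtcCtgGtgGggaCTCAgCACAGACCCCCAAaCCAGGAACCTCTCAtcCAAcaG
Cdhr5 exon copy 2: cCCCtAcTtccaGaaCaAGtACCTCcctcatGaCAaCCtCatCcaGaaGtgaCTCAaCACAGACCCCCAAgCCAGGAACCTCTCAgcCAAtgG
Cdhr5 exon copy 3: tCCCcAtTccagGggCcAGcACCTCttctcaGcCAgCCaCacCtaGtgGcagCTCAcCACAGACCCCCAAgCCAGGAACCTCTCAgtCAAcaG
They run from chr7:140851634-140851726 through chr7:140851541-140851633 to chr7:140851448-140851540, in the direction of transcription. All 3 have the same base at 58 of the 93 positions (62.4%). Copies 1 and 3 are the most alike, with 78.5% of bases the same, followed by copies 1 and 2 (75.3%) and copies 2 and 3 (67.7%). The truncated transcript ENSMUST00000210124 holds the 3′ part of this exon, with copies 2 and 3 but not copy 1. For the long form, which carries all 3, the confidence bounds were 134 to 147 FPKM in RVC 1. They were 92.7 to 103 FPKM in fresh frozen 1, so these bounds of the 2 libraries did not overlap.

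**Figure D2:**
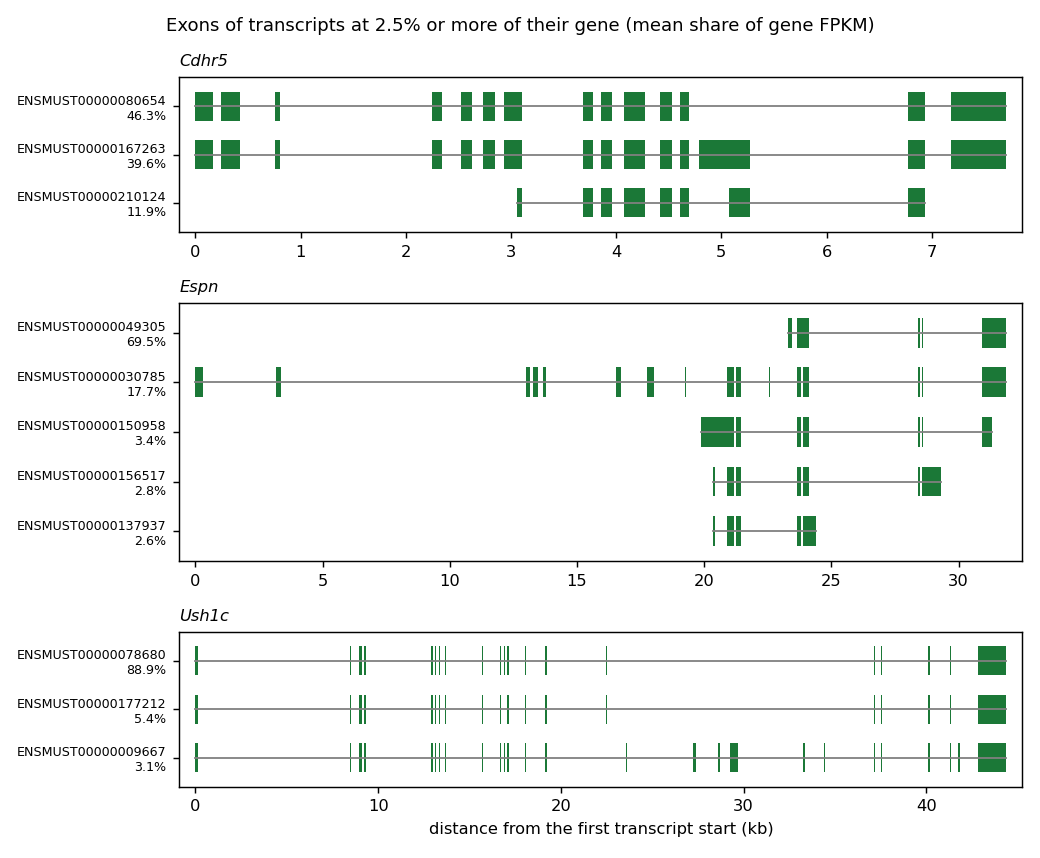
Exons (green boxes) of the transcripts at 2.5% or more of Cdhr5, Espn and Ush1c, drawn 5′ to 3′ by distance in kb from the first transcript start, with the mean share of gene FPKM over 4 libraries under each name. The wide 13th exon in the second row of Cdhr5 is absent from the first row, the leading Espn transcript starts far downstream of the long one, and the longer Ush1c transcript carries a run of exons in the middle that the leading one skips. Exons are drawn from GENCODE, where the leading Espn and Ush1c transcripts are longer than the lengths given in the text.

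Cdhr2 (ENSMUSG00000034918, chr13:54849274-54884475, plus strand), the partner cadherin, measured 196 and 169 FPKM in the RVC pair and 134 and 124 in the fresh-frozen pair (156 ± 33.1, SD, n = 4). Both RVC libraries were above both fresh-frozen ones. The files list 1 transcript for it, of 32 exons and 4129 nt. The ratio of Cdhr5 to Cdhr2 was nearly the same in all libraries: 1.85, 1.96, 1.99 and 1.97.

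Of the genes that hold the cadherin tails, Ush1c (ENSMUSG00000030838, chr7:45844774-45887927, minus strand) encodes harmonin, a scaffold with PDZ domains. It measured 64.4 and 56.1 FPKM with RVC and 53.4 and 48.7 fresh frozen (55.6 ± 6.56, SD, n = 4). The groups did not overlap. The leading transcript, ENSMUST00000078680 (21 exons, 2047 nt), gave 91.5%, 89.3%, 87.9% and 86.7%, and the longer ENSMUST00000009667 (27 exons, 3072 nt) gave 2.66%, 3.41%, 3.44% and 3.06%. Between them in abundance was ENSMUST00000177212 (20 exons, 1696 nt), with 4.10% and 4.65% in RVC and 6.37% and 6.57% in fresh frozen. Between the leading and the longer form, 7 exons with 1083 nt in all were only in the longer transcript, and 1 coding exon of 62 nt was in the leading one and not in the longer one. That exon, exon 15 at chr7:45865442-45865503, is printed in lower case with no base marked, because it separates the leading form from the longer one; ENSMUST00000177212 holds it too.
Ush1c exon 15: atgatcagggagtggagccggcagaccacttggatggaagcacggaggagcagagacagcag

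Anks4b (ENSMUSG00000030909, chr7:119773081-119784809, plus strand) encodes the ankyrin-repeat scaffold that binds both harmonin and myosin-7b. It measured 60.4 and 59.0 FPKM in the RVC pair and 55.2 and 59.5 in the fresh-frozen pair (58.5 ± 2.27, SD, n = 4). This was the steadiest of the 10 genes, and its groups overlapped. Its single listed transcript has 2 exons and 3900 nt. Relative to Ush1c it was at 0.939, 1.05, 1.03 and 1.22, so the genes of these partner scaffolds lay close together in level.

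Myo7b (ENSMUSG00000024388), the motor gene of the complex, measured 34.6 and 27.5 FPKM with RVC and 22.3 and 26.7 fresh frozen (27.8 ± 5.07, SD, n = 4). RVC 1 was high and fresh frozen 1 low, and RVC 2 and fresh frozen 2 differed by little. One transcript, ENSMUST00000134663 (47 exons, 6621 nt), held all of it to within rounding. Ush1c exceeded Myo7b by 1.83 to 2.39 times and Cdhr5 exceeded it by 9.16 to 12.0 times, so the tip-link genes were far from equal in level.

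No strand setting is given in the sources used here, so reads of overlapping genes on opposite strands cannot be told apart. This concerns Vil1 and Usp37 (6.40 FPKM on average), Ush1c and Gm9860 (2.67), Espn and Tnfrsf25 (0.270), and Myo7b and the long noncoding RNA Gm16344 (4.92). In each of these cases the scaffold gene was the more abundant. GENCODE also places long noncoding RNAs on the opposite strand of Espn (Gm69804, which spans start 2), Eps8 (Gm67958), Pls1 (Gm69100 and Gm69103) and Myo1a (Gm66551). These are not among the genes listed for the libraries, so no level is known for them. Across the leading transcripts, the distance from the value to a confidence bound of the files was 1.38% to 11.9% of the value, with a median of 4.68%.

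**Figure D3:**
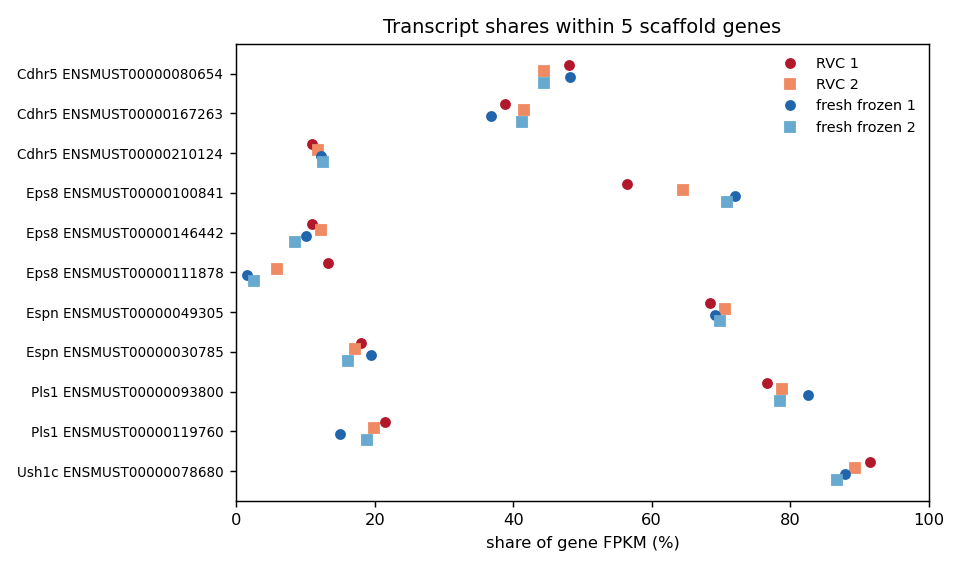
Share of gene FPKM (%) taken by the leading transcripts of 5 genes and by other transcripts named in the text, 1 point per library (circles sample 1, squares sample 2, reds RVC, blues fresh frozen). The shares of each Espn transcript lie within 4 percentage points of each other, while the leading Eps8 transcript ranges from 56.4% to 71.9%.

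Each of the 10 genes was set beside its relatives, and in most cases the scaffold gene was much the more abundant. Some relatives, such as Eps8l3 and Myo1d, are brush border genes themselves. Cdhr5 and Cdhr2 stood against Cdhr1, a photoreceptor cadherin, at 0.821 to 1.37 FPKM; the hair-cell tip-link genes Cdh23 and Pcdh15 reached at most 0.126 and 0.542 FPKM. Myo7b was 9.50 to 11.0 times the level of Myo7a, the hair-cell form of the motor, which measured 3.19, 2.60, 2.35 and 2.42 FPKM. Anks4b faced Ush1g, which was listed at 0 in 3 libraries and at 0.0188 FPKM in fresh frozen 2. Espn faced Espnl, listed at 0 in 3 libraries and at 0.0152 FPKM in fresh frozen 1. Ush1c stood against Pdzd7 at 2.21 to 3.26 FPKM. Pls1 was 16.9 to 22.7 times Pls3, the plastin of many solid tissues.

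In 3 genes the relatives were abundant too. Eps8l3, a relative of Eps8, measured 163 and 138 FPKM in the RVC pair and 118 and 111 in the fresh-frozen pair, which is 1.30 to 1.61 times Eps8; it was the only relative whose mean was above that of its scaffold gene. Gsn, which encodes the actin-severing protein gelsolin, measured 200.5, 214, 178 and 139 FPKM beside Vil1, and exceeded Vil1 in RVC 2. Gelsolin is made in muscle and connective tissue as well as in epithelium. Myo1d, another class I myosin of the brush border, was at 44.9 to 51.9 FPKM, and Myo1a was 2.70 to 3.08 times as high.

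**Figure D4:**
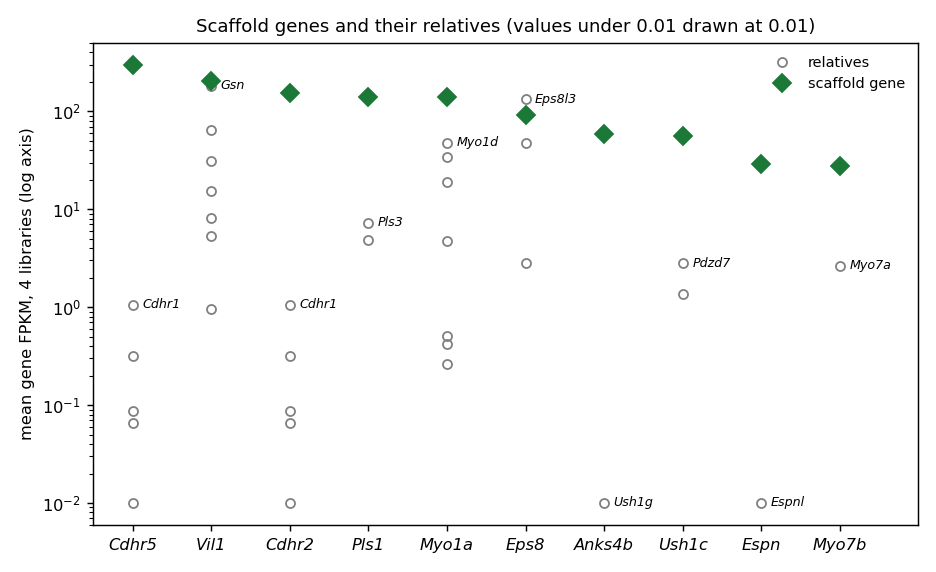
Mean gene FPKM over 4 libraries (vertical log axis) of the 10 scaffold genes (green diamonds) and of their relatives (open circles), with the most abundant relative of each named. Values under 0.01 FPKM are drawn at 0.01; Eps8l3 is the only circle above its diamond.

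The design compares tissue labelled RVC with tissue labelled fresh frozen. No scaffold gene passed the test: 0 of 10 had an adjusted p under 0.05 in limma, a linear model fitted to log2(scaled FPKM + 1) of all 13771 genes tested, of which 0.0363% (5 genes) passed. At an unadjusted p under 0.05 there were 3 of 10, all higher in RVC (Cdhr2, Espn and Cdhr5), where 18.4% of all genes reached that level in either direction and 9.38% did so with higher values in RVC. In 7 of 10 genes (Vil1, Espn, Eps8, Cdhr2, Cdhr5, Ush1c and Myo7b) both RVC libraries were above both fresh-frozen ones, and in none of the 10 were both below. Over all genes tested, 26.5% were without overlap and higher in RVC and 26.6% without overlap and lower, 53.2% in all. All 10 estimates were above 0, against 51.0% of all genes, although Pls1 and Anks4b were below 0 when the libraries were scaled by pan-epithelial genes. The median of the 10 log2 differences was 0.23, beside 0.0066 over all genes tested. With the pan-epithelial scaling the median was 0.15, beside -0.062 over all genes tested. Under that scaling 5 of 10 genes were without overlap, where 48.4% of all genes were so in either direction. In bulk tissue, more cells of a type and more RNA per cell cannot be told apart.

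Cdhr2 had the largest estimate, 0.50 higher in RVC on the log2(scaled FPKM + 1) scale (SE 0.121, 95% interval 0.219 to 0.786, limma adjusted p = 0.137). Espn followed at 0.46 (interval 0.146 to 0.776, limma adjusted p = 0.167) and Cdhr5 at 0.45 (0.166 to 0.725, limma adjusted p = 0.154). The intervals of the other 7 included 0. Myo7b was estimated at 0.33 and Ush1c at 0.24, with limma adjusted p of 0.295 and 0.319. Vil1 stood at 0.23, Eps8 at 0.15 and Myo1a at 0.15, with adjusted p from 0.366 to 0.541. For Anks4b the estimate was 0.06, with an interval from -0.189 to 0.314, and for Pls1 it was 0.02, from -0.247 to 0.287. Differences up to these bounds, in either direction, are within the error for these 2 genes. With 2 libraries against 2, the smallest p that an exact permutation test of 1 gene can give is 0.333.

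The replicates of a group also differed in a common direction. All 10 genes were higher in RVC 1 than in RVC 2, by a median of 0.19, and 7 of 10 were higher in fresh frozen 1 than in fresh frozen 2, by a median of 0.059. By pairing, the median difference of the 10 genes was 0.28 for RVC 1 against fresh frozen 1, 0.37 against fresh frozen 2, 0.097 for RVC 2 against fresh frozen 1 and 0.14 against fresh frozen 2. By these medians, RVC 1 and RVC 2 differed by more than RVC 2 and either fresh-frozen library. Without RVC 1 the median difference was 0.12, and 9 of 10 estimates were above 0 (Pls1 was not). The estimates were then 0.17 for Myo7b, 0.13 for Ush1c, 0.11 for Vil1, 0.07 for Eps8 and 0.01 for Myo1a. Without RVC 2 the median difference was 0.34.

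**Figure D5:**
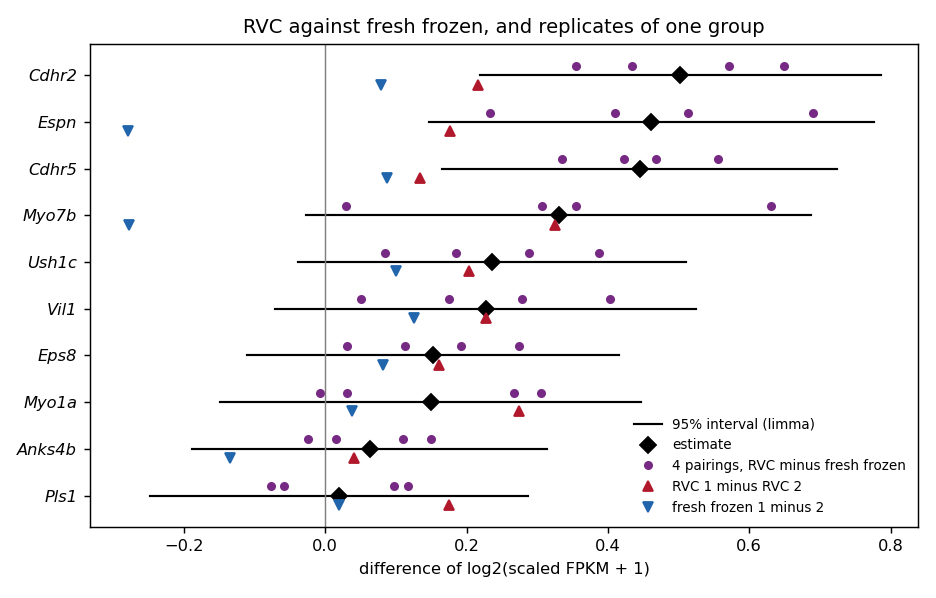
Differences of log2(scaled FPKM + 1), RVC minus fresh frozen, for the 10 genes: limma estimate (diamond) with its 95% interval (line), the 4 pairings of single libraries (dots), and the difference between samples 1 and 2 within RVC (red triangles) and within fresh frozen (blue triangles). The intervals of Cdhr2, Espn and Cdhr5 lie above 0; every red triangle is to the right of 0.

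Ratios between members, which need no scaling between libraries, showed how unevenly they differed. The ratio of Cdhr2 to Pls1 was 1.32 and 1.28 in the RVC libraries against 0.948 and 0.909 in the fresh-frozen ones, and Cdhr5 to Pls1 was 2.43 and 2.51 against 1.88 and 1.79. Replicates lay close together and the groups lay apart in both. Summed tip-link genes (Cdhr2, Cdhr5, Ush1c, Myo7b and Anks4b) over summed actin-core genes (Vil1, Espn, Eps8 and Pls1) gave 1.38 and 1.41 against 1.18 and 1.19. That sum is led by the 2 cadherins: Anks4b relative to Ush1c, within the complex, overlapped between the groups. Vil1 over Eps8, within the actin core, was 2.30 and 2.203 against 2.17 and 2.11. Vil1 over Pls1 was 1.58 and 1.52 against 1.39 and 1.29, and Pls1 over Espn was 4.12 and 4.14 against 6.32 and 5.10. The groups thus lay apart in ratios within the core as well. These ratios were chosen with the levels known and are given without a test.

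At the level of transcripts, 28 of the 60 passed the filters on low values, length and status. None had an adjusted p under 0.05 in limma, where 0.00415% of the 24080 transcripts tested did, and 9 of 28 had an unadjusted p under 0.05, where 15.6% of all transcripts did. The lowest adjusted p was 0.227, for the long Cdhr5 transcript ENSMUST00000167263, which stood 0.48 higher in RVC (SE 0.0980). Its shorter partner ENSMUST00000080654 was 0.43 higher (SE 0.135). The largest estimate among these 9 was that of Eps8 ENSMUST00000111878, at 1.78 (SE 0.418, limma adjusted p = 0.238). In 16 of 28 the groups did not overlap with higher values in RVC (25.4% of all transcripts), and in 4 of 28 with lower ones (24.9%), the leading Eps8 transcript among the latter. The estimate of that transcript was -0.093 (SE 0.0981, limma adjusted p = 0.670).

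Genes that work beside the scaffold were examined by fixed lists, none of which held a gene past the adjusted threshold; counts at an unadjusted p under 0.05 stand against 18.4% of all genes tested. Of 14 tested genes of other brush border proteins, 10 were higher and 4 lower in RVC by estimate, with a median of 0.18 and with 4 at an unadjusted p under 0.05. The 3 most abundant were Ezr (0.19, SE 0.148), which encodes ezrin, a link between membrane and actin, its partner scaffold gene Slc9a3r1 (0.38, SE 0.197), and Eps8l3 (0.39, SE 0.124). Of 12 terminal web and actin genes, 10 were higher and 2 lower, with a median of 0.15 and 2 at an unadjusted p under 0.05. These were led by Actb (0.38, SE 0.162) and Actg1 (0.21, SE 0.145), which encode the non-muscle actins, and by the tropomyosin gene Tpm1 (0.37, SE 0.158), which muscle also expresses. Of 12 genes of apical trafficking, which bring material to the brush border, 8 were higher and 4 lower (median 0.06, 2 at an unadjusted p under 0.05), and the most abundant, Rab11a, Atp8b1 and Rab8a, were at 0.06, -0.07 and 0.03. Of 9 transcriptional regulators of enterocytes, 4 were higher and 5 lower (median -0.0070, 1 at an unadjusted p under 0.05), with Klf4 at 0.06, Hnf4a at 0.18 and Elf3 at 0.15. Of 29 listed relatives of the members 19 were tested, 13 higher and 6 lower (median 0.21, 8 at an unadjusted p under 0.05); the most abundant were Gsn (0.40), Eps8l3 (0.39) and Scin (-0.19). Of 12 listed hair-bundle genes, 11 were found in the files and 4 were abundant enough to be tested, Eps8l2, Triobp, Myo7a and Whrn, with a median of 0.21 and 1 at an unadjusted p under 0.05.

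Markers of cell types are given beside these genes; 0 passed the adjusted threshold in any list, and counts at an unadjusted p under 0.05 again stand against 18.4% of all genes tested. Of the pan-epithelial markers, 8 of 9 were higher in RVC by estimate (median 0.04, led by Lgals4, Krt8 and Krt19, 0 at an unadjusted p under 0.05), with sums of 6085 and 6035 FPKM against 6772 and 5010 fresh frozen. Of the colonocyte markers, of the mature absorptive cells, 8 of 8 were higher (median 0.26, led by Car4, Car1 and Slc26a3, 2 at an unadjusted p under 0.05), with sums of 8113 and 6949 FPKM against 6512 and 5706 fresh frozen. Smooth muscle markers were higher in 8 of 8 (median 0.88, led by Actg2, Acta2 and Cnn1, 8 at an unadjusted p under 0.05), with sums of 1116 and 1670 FPKM against 686 and 735. Endothelial markers were higher in 6 of 6 (median 0.59, led by Pecam1, Cldn5 and Cdh5, 6 at an unadjusted p under 0.05) with sums of 21.8 and 20.1 against 10.4 and 13.1. Plasma cell markers were higher in 4 of 4 tested of 6 (median 0.88, led by Igkc, Igha and Jchain, 3 at an unadjusted p under 0.05) with sums of 921 and 819 against 311 and 527, and macrophage markers in 6 of 6 (median 0.45, led by Lyz2, C1qa and C1qb, 4 at an unadjusted p under 0.05) with sums of 104 and 103 against 76.2 and 69.8. Of these lists, no marker was at 0 in all 4 libraries.

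Among other epithelial lists, stem and cycling cell markers were higher in 3 and lower in 3 of 6 tested (median -0.11, led by Pcna, Mki67 and Top2a). Of these, 2 had an unadjusted p under 0.05, Mki67 (-0.62) and Top2a (-0.56), both lower in RVC without overlap. The list had sums of 43.8 and 50.4 FPKM against 50.9 and 53.5. Goblet cell markers were higher in 4 and lower in 3 of 7 (median 0.01, led by Zg16, Clca1 and Tff3, 1 at an unadjusted p under 0.05), with sums of 17681 and 14272 against 14675 and 16484. Of 6 tuft cell markers, 2 were tested, Dclk1 and Trpm5 (median 0.02, 0 at an unadjusted p under 0.05), with sums of 5.63 and 6.01 against 4.39 and 6.58. Of the lists for the gut segment, colon genes had a median of 0.11 and ileum genes of -0.22, over 7 and 5 genes tested, with 2 and 1 at an unadjusted p under 0.05. The part of the tissue's makeup in the differences of the scaffold genes was not tested.

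The pattern of the 10 genes over the 4 libraries was taken as the median of their centred log2 values, which was 0.22 and 0.0069 with RVC and -0.08 and -0.11 fresh frozen. Among 5028 tested genes with a mean of at least 10 scaled FPKM, the 5 nearest to it by Euclidean distance were Shc1 (0.0298), Itpr3 (0.0306), Gstp2 (0.0338), Ercc3 (0.0345) and Dda1 (0.0366). The scaffold genes themselves lay at distances from 0.0651 (Ush1c) and 0.0767 (Myo1a) to 0.296 (Cdhr2) and 0.332 (Espn). As the 5 genes were picked for the smallest distances of 5028, their lying nearer than the scaffold genes follows largely from that choice. With only 4 libraries, many genes of any kind have such a pattern.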

How the data were processed

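The deposited files hold, for each of 4 libraries, FPKM values per transcript with confidence bounds, and coverage as a signal per base, both made by the authors with Cufflinks 2.2.1 after TopHat2 2.1.1 alignment to GRCm39, per the series' design text and the submitters' processing notes. Per the labels' protocols, ribosomal RNA was depleted and read pairs of 150 bp were sequenced. Read counts are not given in the sources used here, so absolute depth is unknown; relative depth came from the deposited coverage. Cufflinks divides reads among transcripts by likelihood, so shares of similar transcripts carry more error than gene sums.

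Transcript FPKM was summed per gene, scaled by median ratios and tested with limma 3.58.1 (R 4.3.3, trend, two-sided, Benjamini-Hochberg over all genes tested) on log2(scaled FPKM + 1). Genes needed a mean of at least 1, a transcript of at least 300 nt and status OK. Fold changes of low genes are understated on this scale. The fit was tested on simulated data. All 60 member transcripts were found in GENCODE, which gave exons; promoters came from RefSeq, which had entries for 8 of the 10 genes.

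Named were the 10 genes, their leading transcripts and others at 10% or more of a gene, the most abundant relative of each, the 3 most abundant tested genes of each list, and the 5 genes of most similar pattern. Outside this rule, Eps8 ENSMUST00000111878, ENSMUST00000058210, ENSMUST00000147526 and ENSMUST00000132920, Ush1c ENSMUST00000009667 and ENSMUST00000177212, Cdh23 and Pcdh15 were chosen after their values were seen. The members and lists were chosen with earlier results of these data known. Alternatives changed the pseudocount, scaling, filters, gene sum, block and trend, and left out each library.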

Additional observations from a re-analysis of the deposited data

How the results depend on the processing

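Of 160 log2 differences of single scaffold genes under the alternatives, 154 kept their direction and their side of the threshold. The 6 that reversed were Pls1 at -0.061 and Anks4b at -0.018 with scaling by pan-epithelial genes, Eps8 at -0.070 and Pls1 at -0.013 with the leading transcript used for each gene, Pls1 at -0.068 without RVC 1 (its highest value when leaving out 1 library each was 0.11, without RVC 2), and Anks4b at -0.0074 without fresh frozen 1 (its highest was 0.13, without fresh frozen 2); the cause was not tested. The count of scaffold genes past the adjusted threshold was 0 under every alternative run, and leaving out 1 library each gave medians from 0.12 to 0.34. With the leading transcript alone the mean levels fell, by construction, to 139 FPKM for Cdhr5, 110 for Pls1, 60.1 for Eps8 and 20.3 for Espn. The count of all genes past the adjusted threshold, 5, was unstable: 15 with pan-epithelial scaling, 14 with a minimum of 5 scaled FPKM, 2 with the leading transcript, and 0 with no filter, with transcripts under 300 nt left out or with no trend. Leaving out 1 library each gave 8 to 40; the lone sample left in a group is then assumed to vary like the other group. A replicate block on the sample number gave 112 genes and none of the 10; the correlation of deviations of same-numbered samples was -0.13 over 13771 genes, the samples share only a number, and a crossed block, chosen after seeing the data, gave 12. Absolute depth was not known, which limits the precision that can be stated for single transcripts.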
